A study of Mus musculus with 3 samples.

Results

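The nuclear-encoded genes of the mitochondrial respiratory chain and ATP synthase were taken by symbol from the deposited tables, as Nduf, Sdha to Sdhd, Uqcr, Cox4i, Cox5, Cox6, Cox7, Cox8, Atp5, Cyc1 and Cycs genes, with pseudogenes named "-ps" left out. The rule gave 94 of the 15503 genes listed in any of the 3 tables. Of these, 38 belong to complex I by name, 4 to complex II, 9 to complex III, 16 to complex IV and 17 to complex V, which is ATP synthase. A further 9 are assembly factors (Ndufaf1 to Ndufaf7, Sdhaf1 and Sdhaf2), and Cycs encodes cytochrome c. All 94 passed the filter of a mean FPKM of at least 1, where FPKM is fragments scaled to transcript length and to the mapped fragments of a library, and 93 were listed in all 3 tables. Atp5g2 appeared only in the table that leaves out the Egln1_Tie2Cre library, with 368.9 FPKM in the Egln1_Hif2a_Tie2Cre library and 280.03 FPKM in the floxed library.

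RNA of the left ventricle was sequenced from C57BL6J mice of 3 genotypes, with RNA of 3 mice pooled into 1 library per genotype. The Egln1_Hif2a_Tie2Cre pool is labelled as deleted for Egln1 and Hif2a with Tie2Cre, the Egln1_Tie2Cre pool as deleted for Egln1 with Tie2Cre, and the control pool as Egln1 floxed without mention of Cre, although the design text calls it wild type. Egln1 encodes PHD2, the oxygen-dependent enzyme that tags hypoxia-inducible factors (HIF) to be degraded, and Epas1 encodes Hif2a. The Tie2 promoter drives Cre in endothelial cells and in blood-forming cells, so that cardiomyocytes are not its usual target. The labels give no age, sex or treatment. With 1 pooled library per genotype there is no replicate error, and all differences below describe these 3 libraries without a test.

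Complexes I to IV pass electrons from NADH and succinate to oxygen, complexes I, III and IV pump protons across the inner mitochondrial membrane as they do so, and ATP synthase uses the proton gradient to make ATP. Heart muscle depends on this route for most of its ATP and is rich in mitochondria. Many of these genes are short and abundantly transcribed, and such genes have often left processed pseudogenes, which are reverse-transcribed copies of the spliced mRNA that were inserted elsewhere in the genome.

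Egln1 was read first, as the gene that all deletions share. It had 129.0 FPKM in the library labelled Egln1_Hif2a_Tie2Cre, 95.7 FPKM in the Egln1_Tie2Cre library and 129.5 FPKM in the floxed library. The label of the first of these is thus not borne out by the level of Egln1 in whole ventricle. That level cannot contradict the label either, since cardiomyocytes are not the usual target of Tie2Cre. Epas1 had 54.5, 65.0 and 77.4 FPKM in the same libraries. Cardiomyocyte markers were abundant, and the 6 of 7 listed in every library summed to 42994, 46602 and 38632 FPKM in the libraries labelled Egln1_Hif2a_Tie2Cre, Egln1_Tie2Cre and floxed. They did not move together, since 3 were above and 3 below 0 in log2 ratio of Egln1_Tie2Cre over floxed (median 0.10), with Myl2, a ventricular myosin light chain, at 0.86 and Myh6, a myosin heavy chain, at -0.88. The 6 endothelial markers summed to 256, 247 and 223 FPKM, and the 3 atrial markers listed in every library to 91.5, 128.1 and 54.2 FPKM. Of the endothelial markers, 5 were above 0 and 1 below in Egln1_Tie2Cre over floxed (median 0.17). The same counts held in Egln1_Hif2a_Tie2Cre over floxed (median 0.13), from Cdh5 at -0.14 to Emcn at 1.03. The part of these markers in the results was not tested, and in RNA of whole tissue fewer cells of a type and less RNA per cell cannot be told apart. Depth is unknown, because FPKM does not keep the read counts.

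A copy was sought for each gene by aligning its coding sequence to the GENCODE M21 transcripts of all other genes (build GRCm38; the build the authors used is not given in the sources used here). A match of at least 90% identity over at least 80% of the coding sequence counted as a copy. By this rule 35 of the 94 genes had a copy and 59 had none, and 15 had a copy of at least 98% identity. These 15 are Ndufa12, Ndufab1, Ndufb4, Ndufs3 and Ndufs5 of complex I, Uqcrb and Uqcr11 of complex III, Cox5b and Cox7c of complex IV, Atp5f1, Atp5g1, Atp5g2, Atp5h and Atp5l of complex V, and Cycs. Complex II and the assembly factors had no copy. The sequences of 3 genes and their copies show the range from a perfect copy to a diverged one. Each is the coding sequence from start to stop codon, from GENCODE M21, with the bases that differ between gene and copy in capitals. Cox7c (chr13:86044816-86046904, minus strand, 3 exons) and the processed pseudogene Gm12338 (chr11:75599763-75599954, minus strand) share all 192 bases. Uqcr11 (chr10:80402997-80406830, minus strand, 3 exons) differs from Gm16418 (chr1:166431705-166431875, minus strand) at 2 of 171 bases. Uqcr10 (chr11:4701973-4704342, minus strand, 2 exons) differs from Gm6293 (chr19:5415565-5415759, minus strand) at 10 of 195 bases.
Cox7c and Gm12338: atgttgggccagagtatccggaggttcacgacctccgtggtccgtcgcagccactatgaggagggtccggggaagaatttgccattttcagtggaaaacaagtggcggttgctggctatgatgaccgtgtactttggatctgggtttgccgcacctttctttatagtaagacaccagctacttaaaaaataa
Uqcr11: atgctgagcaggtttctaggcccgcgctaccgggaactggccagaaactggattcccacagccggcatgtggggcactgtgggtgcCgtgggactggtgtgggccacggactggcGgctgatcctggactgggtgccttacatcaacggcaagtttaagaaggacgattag
Gm16418: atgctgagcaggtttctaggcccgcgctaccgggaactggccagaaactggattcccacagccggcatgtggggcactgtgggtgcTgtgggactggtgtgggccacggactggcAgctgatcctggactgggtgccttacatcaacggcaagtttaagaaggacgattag
Uqcr10: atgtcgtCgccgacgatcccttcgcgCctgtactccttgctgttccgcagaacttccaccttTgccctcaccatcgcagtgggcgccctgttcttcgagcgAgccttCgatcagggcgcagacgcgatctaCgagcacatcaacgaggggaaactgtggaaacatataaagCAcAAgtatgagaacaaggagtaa
Gm6293: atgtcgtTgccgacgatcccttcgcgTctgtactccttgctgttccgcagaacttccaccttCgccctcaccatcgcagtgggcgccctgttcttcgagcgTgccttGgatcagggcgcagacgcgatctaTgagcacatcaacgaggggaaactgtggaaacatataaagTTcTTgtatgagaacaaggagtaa

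The genes as a group were among the most abundant transcripts of the ventricle. The 93 genes listed in all 3 libraries summed to 13.2% of all FPKM in the Egln1_Hif2a_Tie2Cre library, against 12.7% for Egln1_Tie2Cre and 10.7% for floxed. Their median level was 657, 486 and 516 FPKM in those libraries. Without the 14 genes that have a copy of at least 98% identity, the shares were 10.5%, 12.2% and 8.58%, and the medians were 592, 590 and 489 FPKM. The Egln1_Tie2Cre library was then the highest by share but not by summed level, which was 78285, 70914 and 56416 FPKM. The total behind the shares includes mitochondrially encoded transcripts. The 8 mitochondrially encoded subunits listed in every library summed to 190633, 68059 and 128741 FPKM in the same order, so the shares also depend on these. Among them mt-Nd3, which has a copy of 99.71% identity, had 46804.6, 9.70 and 21464.5 FPKM. A further subunit, mt-Co2, had 51974 FPKM in the floxed library, 29.96 FPKM in the Egln1_Tie2Cre library and no value in the Egln1_Hif2a_Tie2Cre library. The totals behind the shares thus do not hold the same genes. Cox7a1, the heart and skeletal muscle form of a small cytochrome oxidase subunit, had 7916 FPKM in the Egln1_Hif2a_Tie2Cre library, 4618 FPKM in the Egln1_Tie2Cre library and 4779 FPKM in the floxed library, where it was the most abundant of the set. Atp5b, the catalytic beta subunit of ATP synthase, had 4259 FPKM in the Egln1_Hif2a_Tie2Cre library, 4808 FPKM in the Egln1_Tie2Cre library, where it ranked highest of the set, and 3921 FPKM in the floxed library. In the floxed library the median member had 1386 FPKM in complex IV, 1150 FPKM in complex V, 808 FPKM in complex III, 470 FPKM in complex II and 408 FPKM in complex I. Assembly factors, which help build the complexes but are not part of them, had a median of 20.99 FPKM there. In the Egln1_Tie2Cre library that order changed, with a median of 1197 FPKM in complex V, 804 FPKM in complex III and 558 FPKM in complex IV, although the summed level of complex IV was 20846 FPKM in the Egln1_Tie2Cre library and 20435 FPKM in the floxed library. Without the genes that have a copy of at least 98% identity, which in complex IV are Cox5b and Cox7c, the medians of complexes V, IV and III came in that order in both libraries, at 1422, 1320 and 806 FPKM in the Egln1_Tie2Cre library and 991, 943 and 765 FPKM in the floxed library. Atp5s and Atp5sl, which carry the ATP synthase prefix but are also known as Dmac2l and Dmac2, were the lowest of complex V by name, at 10.3 to 13.4 FPKM and 24.1 to 29.5 FPKM over the 3 libraries.

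Between the Egln1_Tie2Cre and floxed libraries, the genes that were 2-fold lower all had a close match at another locus. The ratio used is log2 of (FPKM + 1) in the first library over that in the second, and genes at least 2-fold apart were counted. Of 93 genes, 2 were higher by 2-fold or more in the Egln1_Tie2Cre library and 13 were lower by as much, against 3.93% higher and 3.84% lower of the 11978 genes kept. At 1.5-fold, 9 were higher and 15 lower, against 9.46% and 8.73%. Among the 34 measured genes with a copy of at least 90% identity, 0 were 2-fold higher and 13 were 2-fold lower (2.55% and 27.6% of all coding genes with a copy), and their median was 0.22. Among the 59 genes without a copy, 2 were 2-fold higher and 0 were 2-fold lower (1.91% and 1.02% of all coding genes without a copy), and their median was 0.27. All 13 lower genes had a copy of at least 98% identity, a limit that was chosen after the values had been seen. The remaining measured gene with such a copy, Atp5g1, was also lower, at -0.73. The 14 ratios ran from -6.55 to -0.73 with a median of -2.63, and 5 of the 14 belong to complex I, 4 to complex V, 2 each to complexes III and IV, and the last is Cycs. In the whole table, 292 of 467 coding genes with a copy of this closeness were 2-fold lower (62.5%), so the direction was not confined to mitochondrial genes.

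**Figure D1:**
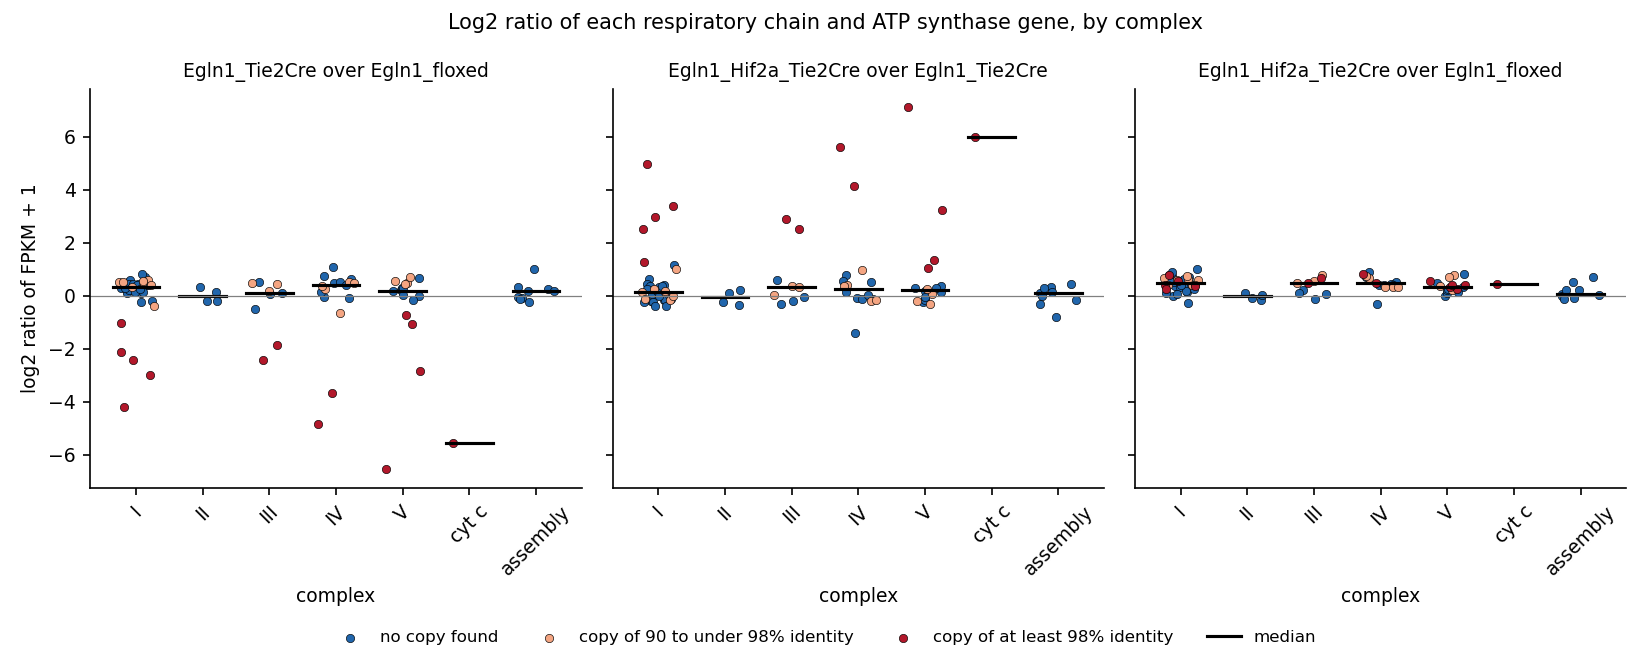
Log2 ratio of FPKM + 1 of each gene (point) by complex, in the 3 comparisons; colours give the identity of the closest copy and bars the median of each complex. The genes with a copy of at least 98% identity lie below -0.7 in the left panel and above 1 in the middle panel, and between 0.25 and 0.81 with the other genes in the right panel.

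The largest differences were those of Atp5l, Cycs and Cox7c. Atp5l (chr9:44912557-44920742, minus strand), which encodes the g subunit of the membrane part of ATP synthase, had 12.8 FPKM in the Egln1_Tie2Cre library and 1295 FPKM in the floxed library, a ratio of -6.55. Cycs (chr6:50562563-50566538, minus strand), the electron carrier between complexes III and IV, had 7.14 FPKM in the Egln1_Tie2Cre library and 385 FPKM in the floxed library (-5.57). Cox7c, whose coding sequence is printed above, had 49.6 FPKM in the Egln1_Tie2Cre library and 1430.1 FPKM in the floxed library (-4.82). The Egln1_Hif2a_Tie2Cre library sat with the floxed library for all 3 genes, at 1924 FPKM for Atp5l, 519 FPKM for Cycs and 2502 FPKM for Cox7c. Ndufb4, an accessory subunit of the membrane arm of complex I, had 338, 9.78 and 196 FPKM in the libraries labelled Egln1_Hif2a_Tie2Cre, Egln1_Tie2Cre and floxed. Cox5b (chr1:36691449-36693681, plus strand), a subunit of cytochrome oxidase, had 2704, 150.04 and 1919.5 FPKM in the same libraries. In both, the Egln1_Tie2Cre library was the low one. Uqcr11, the small complex III subunit printed above with 2 differing bases, had 2148, 372 and 1357 FPKM in the same libraries (-1.86 for Egln1_Tie2Cre over floxed). Uqcr10, printed above with 10 differing bases, had 1183, 912 and 808 FPKM and was not lower in the Egln1_Tie2Cre library (0.18).

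Among the others, Uqcrb, a small subunit of complex III, had 1715, 229 and 1237 FPKM in the libraries labelled Egln1_Hif2a_Tie2Cre, Egln1_Tie2Cre and floxed. Ndufab1, the mitochondrial acyl carrier protein that is also a subunit of complex I, had 1396, 175 and 946 FPKM. Ndufs5 had 517, 48.4 and 396 FPKM, and Ndufa12 had 684, 119 and 516 FPKM, and both are accessory subunits of complex I. For these 4 genes too the Egln1_Tie2Cre library was the lowest. Ndufs3, a core subunit of the peripheral arm of complex I, had 388, 159 and 325 FPKM. Atp5h and Atp5f1, parts of the stalk that holds the catalytic head of ATP synthase, had 1967, 209.5 and 1487.5 FPKM and 745, 293 and 617 FPKM. Atp5g1, 1 of 3 genes that encode the same rotor subunit c, had 2256, 1075 and 1782 FPKM, the mildest of the 14 differences.

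Grouped by the identity of the closest copy, the copied genes had lower median ratios where that identity was higher. Single genes did not all follow this order. Atp5g1, with a copy of 99.757% identity, was at -0.73, and Atp5h, with a copy of 98.969% identity, was at -2.82. Of 12 genes whose closest copy had 90 to under 95% identity, 12 were above 0 in Egln1_Tie2Cre over floxed, with a median of 0.50. With a closest copy of 95 to under 97% identity, 5 of 6 were above 0 (median 0.35), the exception being Ndufb11 at -0.40. Just under the 98% limit, Cox7a2l had a copy of 97.953% identity and a ratio of -0.66, and Atp5o had a copy of 97.04% identity and a ratio of 0.54. Just over it, Uqcrb had a copy of 98.214% identity and a ratio of -2.43. All 5 genes at 98 to under 99% were lower, with a median of -1.86, and all 9 measured genes at 99% or more were lower, with a median of -3.67. The limit of 98% was chosen after the values had been seen.

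**Figure D2:**
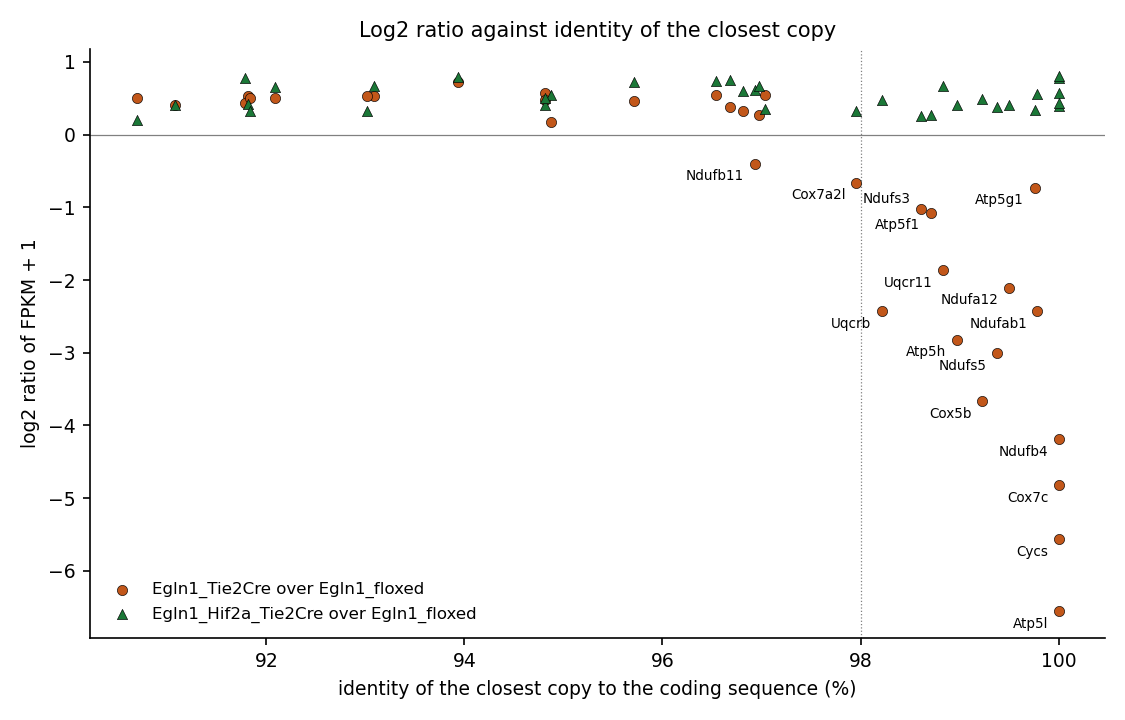
Log2 ratio of FPKM + 1 (vertical axis) against the identity of the closest copy in percent (horizontal axis) for the genes with a copy; circles are Egln1_Tie2Cre over Egln1_floxed and triangles Egln1_Hif2a_Tie2Cre over Egln1_floxed, and the dotted line marks 98%. Circles right of the line run from -6.55 to -0.73, while the triangles stay above 0 at every identity.

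Most of the listed copies moved the other way. The tables list 18 copies of 15 of these genes, and 12 of the 18 had over 100 FPKM in the Egln1_Tie2Cre library, from 162 to 1897 FPKM. The same 12 had at most 4.62 FPKM in the Egln1_Hif2a_Tie2Cre library and at most 13.9 FPKM in the floxed library. They were picked by their Egln1_Tie2Cre level, and the remaining copies did not share a direction. Gm6293 had 3.46 FPKM in the Egln1_Tie2Cre library and 3.40 FPKM in the floxed library, and Gm10012 had 0.539 and 0.274 FPKM. Gm6969 had 24.4 FPKM in the Egln1_Tie2Cre library and no floxed value, and Gm4853 had no Egln1_Tie2Cre value. Ndufb4c and Gm10231, given below, were lower there. Gm12338, the perfect copy of Cox7c, had 2.27, 1897 and 1.01 FPKM in the libraries labelled Egln1_Hif2a_Tie2Cre, Egln1_Tie2Cre and floxed. Gm10221, a copy of Atp5l on chromosome 5, had 4.62, 1037 and 13.9 FPKM. Gm10053, an intact copy of Cycs on chromosome 19 that is annotated as protein coding, had 3.51, 262 and 4.43 FPKM. All 3 copies were high in the Egln1_Tie2Cre library alone. Gm10039, the copy of Atp5g1, had 0.211, 1413 and 0.222 FPKM. Ndufab1 had copies at 2 listed loci of chromosome 7, of which Gm4459 had 0.791, 306 and 0.862 FPKM and Ndufab1-ps had 0.923, 227 and 1.38 FPKM. The Egln1_Tie2Cre library was again the high one at each locus. How the authors' processing assigned reads that match both a gene and its copy in each library is not given in the sources used here, and its part in these values was not tested.

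Adding the listed copies to their gene brought most ratios of Egln1_Tie2Cre over floxed near 0. Of the 12 genes with a copy of at least 98% identity, a listed copy and a value in both libraries, 0 lay within 1.5-fold of the floxed library alone and 9 did so after the addition. The median of the 12 was -2.63 alone and -0.24 with the copies. Cox7c with its copies summed to 1947 FPKM in the Egln1_Tie2Cre library and 1431 FPKM in the floxed library (0.44), a change of sign. Atp5g1 with its copy summed to 2488 FPKM in the Egln1_Tie2Cre library and 1783 FPKM in the floxed library (0.48), also a change of sign. Atp5l with its copies summed to 1050.2 and 1309 FPKM in those libraries (-0.32), Ndufs3 to 321 and 326 FPKM (-0.02), and Atp5f1 to 603 and 617 FPKM (-0.03). The 3 that stayed lower were Ndufs5 (-0.80), Uqcrb (-1.36) and Ndufb4 (-4.20). The perfect copy of Ndufb4, Ndufb4c, was itself low in the Egln1_Tie2Cre library, with 2.79, 0.244 and 6.18 FPKM in the libraries labelled Egln1_Hif2a_Tie2Cre, Egln1_Tie2Cre and floxed. Cox5b and Uqcr11 had no listed copy to add. FPKM is scaled by the length of each locus, so a sum of FPKM is only an approximate sum of reads.

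**Figure D3:**
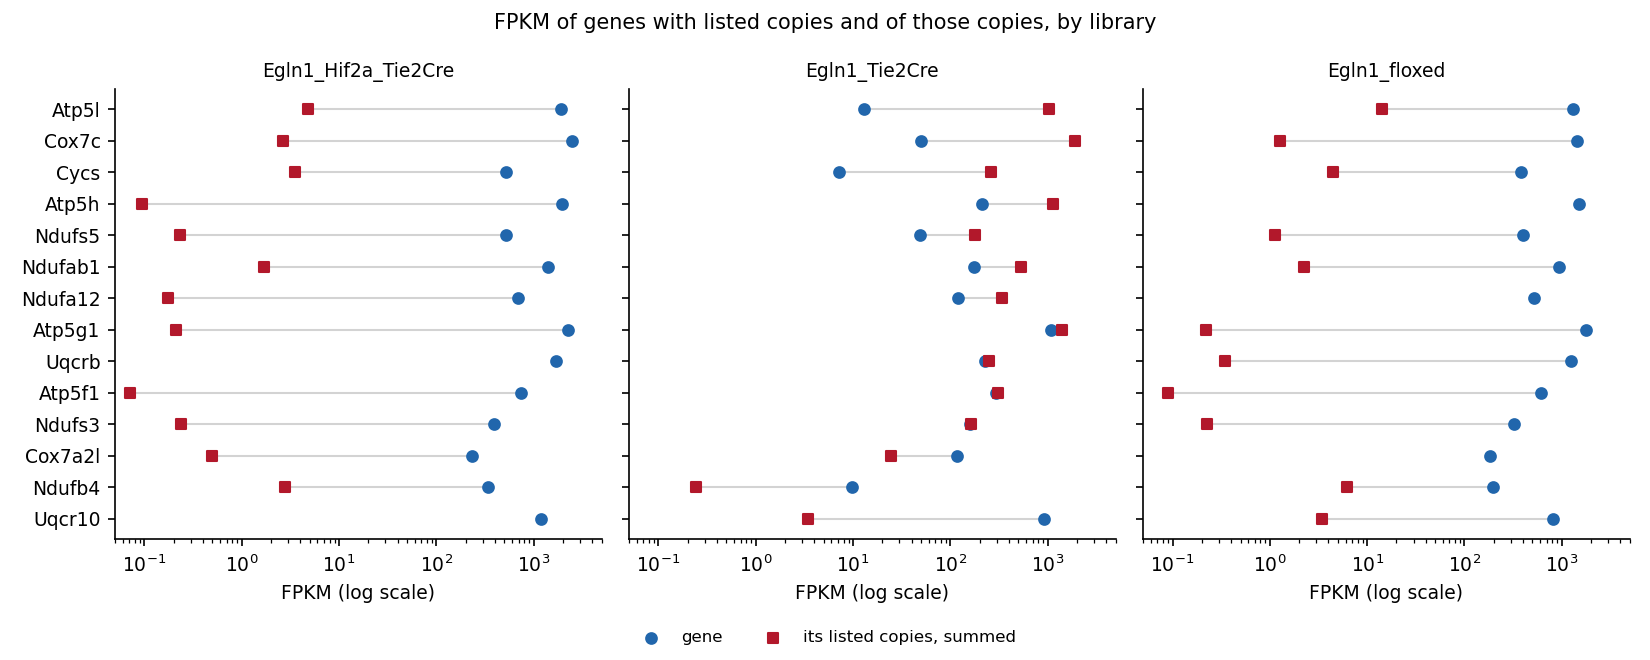
FPKM on a log axis of the 14 genes with a listed copy and a value in every library (circles) and of its listed copies together (squares), in the 3 libraries; genes are sorted by their share of the sum in the Egln1_Tie2Cre library, and no square is drawn where no copy has a value in that library. In the Egln1_Tie2Cre panel the squares reach 1898 FPKM and the circles of the first rows fall to 7.14 FPKM, while in the other panels the squares stay under 15 FPKM.

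Atp5g2 shows a further pattern. Its listed copy, Gm10231, has the same coding sequence and had 69.4 FPKM in the Egln1_Hif2a_Tie2Cre library, 0.413 FPKM in the Egln1_Tie2Cre library and 67.3 FPKM in the floxed library. Here the copy was lower in the Egln1_Tie2Cre library than in the other libraries, and the gene has no value there. In the table the authors deposited for Egln1_Tie2Cre against floxed, 9 of the 93 genes had a q-value of at most 0.05, all of them lower and all with a copy of at least 98% identity (0.411% of the 14827 genes listed in the authors' deposited table were lower at that limit). They are Atp5h, Atp5l, Cox5b, Cox7c, Cycs, Ndufa12, Ndufab1, Uqcr11 and Uqcrb, and the lowest of these q-values in the authors' deposited table was 0.0112. With 1 pooled library per genotype, the authors' q-values here and below do not measure variation between mice or pools.

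The 79 genes without a copy of at least 98% identity mostly lay above 0 in Egln1_Tie2Cre over floxed. Of these, 64 were above 0 and 15 below, with a median of 0.31 and a range of -0.66 to 1.11, while 51.9% of all genes kept were above 0 and their median was 0.02. Of the 79, 0 were 2-fold lower, and of all coding genes without such a copy 123 of 10698 were, so few were to be found. In complexes I, III, IV and V the medians of these genes were 0.39, 0.18, 0.45 and 0.30, and in complex II the median was -0.01. Centred on coding genes of like transcript length, as described below, the medians of complexes I, III, IV and V were lower, at 0.20, 0.06, 0.25 and 0.20. The highest of complex I was Ndufa5 with 1025 FPKM in the Egln1_Tie2Cre library and 573 FPKM in the floxed library (0.84), and the lowest was Ndufb11 with 331 and 437 FPKM (-0.40). In complex III, Uqcrc2, a core protein, had 804 and 565 FPKM in those libraries (0.51), and Uqcrfs1, the Rieske iron-sulfur protein, had 433 and 610.4 FPKM (-0.49). The highest of complex V was Atp5j2 with 1318 and 796.5 FPKM (0.73), followed by Atp5e with 2137 and 1339.7 FPKM (0.67). The 2 genes that were 2-fold higher were Cox6b2, at 6.68 FPKM in the Egln1_Tie2Cre library and 2.57 FPKM in the floxed library, and Sdhaf1, at 16.8 and 7.86 FPKM. Both are low, and 69.6% of the exon bases of Sdhaf1 overlap E130208F15Rik on the opposite strand, so that reads of both cannot be told apart unless strand was used.

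All 4 subunits of succinate dehydrogenase, which is complex II and also an enzyme of the citrate cycle, differed little. Sdha, the flavoprotein that oxidises succinate, had 517, 649 and 583 FPKM in the libraries labelled Egln1_Hif2a_Tie2Cre, Egln1_Tie2Cre and floxed. Sdhb, the iron-sulfur subunit, had 763, 900.3 and 715 FPKM. The membrane anchors Sdhc and Sdhd had 283, 243 and 275 FPKM and 339.5, 313 and 357 FPKM. Sdha and Sdhb were highest in the Egln1_Tie2Cre library and Sdhc and Sdhd lowest there. Cyc1, the cytochrome c1 of complex III, had 677, 699 and 645 FPKM and so varied least among these.

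Between the Egln1_Hif2a_Tie2Cre and Egln1_Tie2Cre libraries the copied genes stood apart again, in a comparison that shares the Egln1_Tie2Cre library with the one above. Of 93 genes, 16 were higher by 2-fold or more in the Egln1_Hif2a_Tie2Cre library and 1 was lower by as much, against 4.31% higher and 4.08% lower of the 11999 genes kept. At 1.5-fold, 19 were higher and 2 lower, against 9.67% and 9.64%. Among the 34 measured genes with a copy of at least 90% identity, 15 were 2-fold higher and 0 were 2-fold lower (29.5% and 2.38% of all coding genes with a copy), with a median of 0.38. Among the 59 without a copy, 1 was 2-fold higher and 1 was 2-fold lower (1.37% and 2.02% of all coding genes without a copy), with a median of 0.08. The 14 measured genes with a copy of at least 98% identity were all among the 16, with ratios of 1.07 to 7.12 and a median of 3.11. Of the 12 with a listed copy, 3 were still 2-fold higher after the copies were added, namely Ndufs5 (1.18), Uqcrb (1.83) and Ndufb4 (4.96), and the median of the 12 was 0.73, with Atp5g1 below 0 (-0.14). Of all coding genes with such a copy, 301 of 469 were 2-fold higher (64.2%). The other 2 were Ndufc1, an accessory subunit of complex I with no copy, at 405 FPKM in the Egln1_Hif2a_Tie2Cre library and 178 FPKM in the Egln1_Tie2Cre library (1.18), and Ndufb11, at 670.0 and 331 FPKM (1.01), whose closest copy has 96.93% identity and which fell just short of 2-fold (0.99) once centred by transcript length. The gene that was lower was Cox6b2, the testis form of a cytochrome oxidase subunit, at 1.87 and 6.68 FPKM (-1.42). Over the 79 genes without a copy of at least 98% identity the median was 0.09, with 48 above 0 and 31 below, while 47.5% of all genes kept were above 0. In the authors' deposited table, 10 of the 93 genes had a q-value of at most 0.05 in this comparison, all higher in the Egln1_Hif2a_Tie2Cre library and all with a copy of at least 98% identity (0.524% of the genes in the authors' deposited table were higher at that limit).

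Between the Egln1_Hif2a_Tie2Cre and floxed libraries the genes with and without close copies did not separate. The 15 genes with a copy of at least 98% identity had a median of 0.43 and the other 79 a median of 0.41. Split at 90% identity, the 35 genes with a copy had a median of 0.49, with 0 that were 2-fold higher or lower (0.521% and 0.348% of all coding genes with a copy). The 59 without a copy had a median of 0.33, with 1 that was 2-fold higher and 0 that were 2-fold lower (0.368% and 0.308% of all coding genes without a copy). Over all 94 genes the median was 0.41, with 86 above 0 and 8 below, while 49.4% of the 11888 genes kept were above 0 and their median was -0.004. The differences were small. Ndufc1, with 405 FPKM in the Egln1_Hif2a_Tie2Cre library and 201.5 FPKM in the floxed library (log2 ratio 1.003), was the only gene of the set that was 2-fold higher, and 0 were 2-fold lower (0.538% and 0.437% of all genes kept). At 1.5-fold, 26 genes were higher and 0 lower, against 4.42% higher and 3.28% lower of all genes kept. Centred on coding genes of like transcript length, as described below, 6 of the 94 were 1.5-fold higher and 1 was lower. Length was that of a single annotated transcript per gene, so this count depends in part on the transcript used. Among the higher genes, Ndufb2 was given 4371 bases for a coding sequence of 318, and Ndufab1 3479 bases for 471. The authors' deposited table has 0 of the 94 genes at a q-value of at most 0.05 in this comparison, where it has 1 higher and 1 lower gene of 14843 (0.00674% each). The 7 cardiomyocyte markers, of which 6 are in the sums given above, did not move together in this comparison. Their median was 0.006, with 4 above and 3 below 0, from Ryr2 at -0.75 to Tnni3 at 0.55. The part of these markers was not tested.

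The shift was spread over complexes I, III, IV and V, with medians of 0.47, 0.47, 0.47 and 0.34, and was not seen in complex II (-0.01) or the assembly factors (0.07). Among genes without a copy, the medians of complexes I, III, IV and V were 0.45, 0.08, 0.45 and 0.24. The 5 genes of complex III with a copy had a median of 0.55. Centred on coding genes of like transcript length, as described below, they had a median of 0.16. The 4 genes of complex III without a copy then had a median of -0.02. In complex I, 37 of 38 genes were above 0, the exception being Ndufs1, the largest core subunit, with 265 FPKM in the Egln1_Hif2a_Tie2Cre library and 317 FPKM in the floxed library (-0.26). In complex IV, 15 of 16 were above 0, the exception being Cox6b2 with 1.87 FPKM in the Egln1_Hif2a_Tie2Cre library and 2.57 FPKM in the floxed library (-0.32). Cox7a2 was the highest of complex IV with 453 FPKM in the Egln1_Hif2a_Tie2Cre library and 240.4 FPKM in the floxed library (0.91). In complex V, 16 of 17 were above 0, with Atp5e, the epsilon subunit, highest at 2353 and 1339.7 FPKM (0.81). Atp5a1, the alpha subunit, had 1846 and 1857 FPKM (-0.01). In complex III, Uqcrq was highest at 2369 and 1377 FPKM (0.78), and Uqcrc1 was the only gene below 0, at 708 and 765 FPKM (-0.11).

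Within this comparison the ratio fell with transcript length. Among the 59 genes without a copy, Spearman's rho between the ratio and the length of the annotated transcript was -0.60 across genes, which share both libraries and are not independent. All 10067 coding genes without a copy gave -0.37. Members without a copy of at least 98% identity and shorter than 700 bases had a median ratio of 0.54 (n = 28), those of 1000 to under 2000 bases 0.19 (n = 29) and those of 2000 to under 4000 bases -0.003 (n = 8). All coding genes without a copy in those length ranges had medians of 0.40, 0.10 and -0.02. Centred on the median of the 200 coding genes without a copy that are nearest in length, the median of the 94 genes was 0.12, with 74 above 0, and 0 were 2-fold higher or lower. After this centring the medians of complexes I to V were 0.20, -0.12, 0.12, 0.14 and 0.11. For Egln1_Tie2Cre over floxed, rho was -0.23 for the 59 genes and -0.17 for all coding genes without a copy, and the centred median of the 79 genes without a copy of at least 98% identity was 0.18, with 54 above 0 and 25 below.

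**Figure D4:**
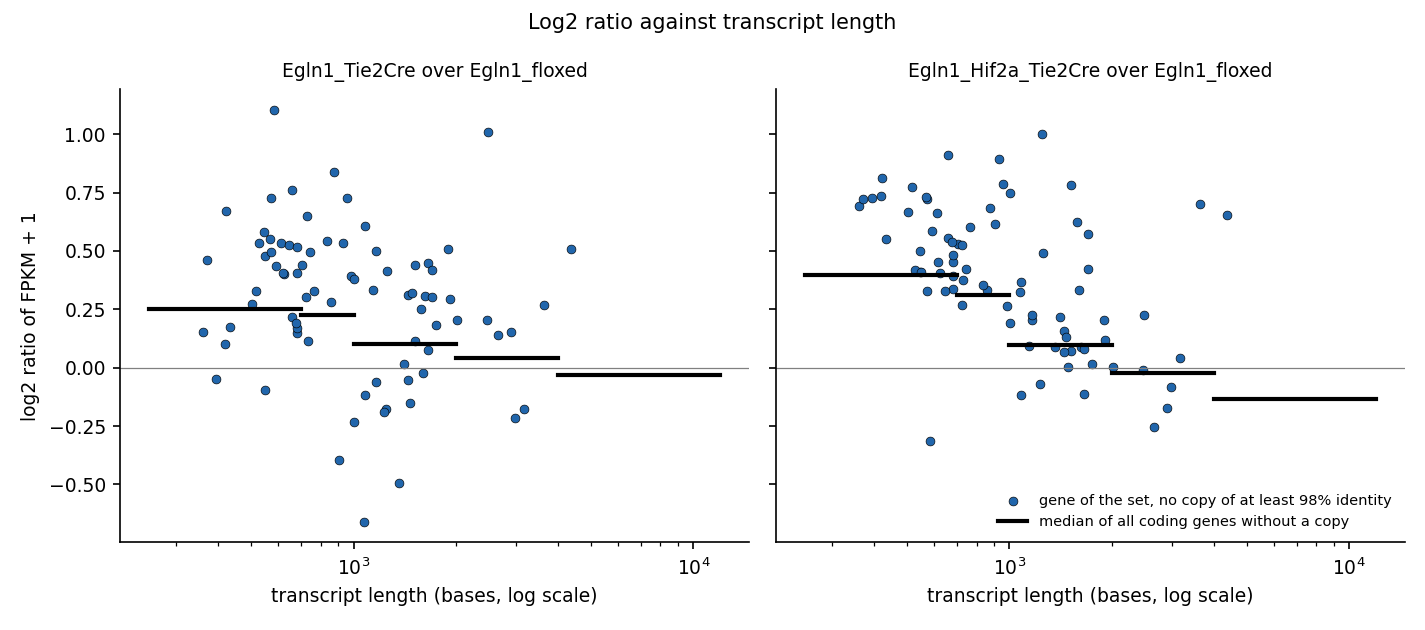
Log2 ratio of FPKM + 1 (vertical axis) against the annotated transcript length in bases (log axis) for the 79 genes without a copy of at least 98% identity; black bars are medians of all coding genes without a copy in 5 length ranges, of which the first and last are open-ended. In the right panel the points of short genes lie mostly above 0.3 and those of 2000 to under 4000 bases have a median of -0.003, and the bars fall from 0.40 to -0.13.

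Several subunits are made from pairs of genes, of which the muscle or the hypoxia-related form differs from the form found in most tissues. The muscle forms dominated in every library. Cox6a2, the muscle form, had 2321, 2529 and 1765 FPKM in the libraries labelled Egln1_Hif2a_Tie2Cre, Egln1_Tie2Cre and floxed, and made up 90.6%, 90.3% and 90.2% of the pair with Cox6a1. Cox8b, another muscle form, had 3125, 2147 and 1930.4 FPKM and made up 89.5%, 89.3% and 87.5% of the pair with Cox8a. Cox7a1 made up 94.6%, 91.9% and 95.2% of the pair with Cox7a2, whose 453, 408 and 240.4 FPKM were lowest in the floxed library. The share of the muscle form thus stayed within 4 percentage points over the libraries in all 3 pairs. Cox4i2, a form of subunit 4 found mostly in lung and in vascular mural cells and induced by low oxygen, had 14.0, 15.3 and 9.42 FPKM, under 1% of the pair with Cox4i1. Ndufa4l2, a HIF-responsive relative of Ndufa4, had 35.9, 27.7 and 18.8 FPKM, against 3450.2, 3154 and 2178 FPKM for Ndufa4. Both were lowest in the floxed library, at ratios over floxed of 0.90 for Ndufa4l2 and 0.52 for Cox4i2 in the Egln1_Hif2a_Tie2Cre library and of 0.53 and 0.65 in the Egln1_Tie2Cre library. Ndufa4 and Cox4i1 were lowest in the floxed library as well, at ratios over floxed of 0.66 and 0.42 in the Egln1_Hif2a_Tie2Cre library and of 0.53 and 0.50 in the Egln1_Tie2Cre library.

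**Figure D5:**
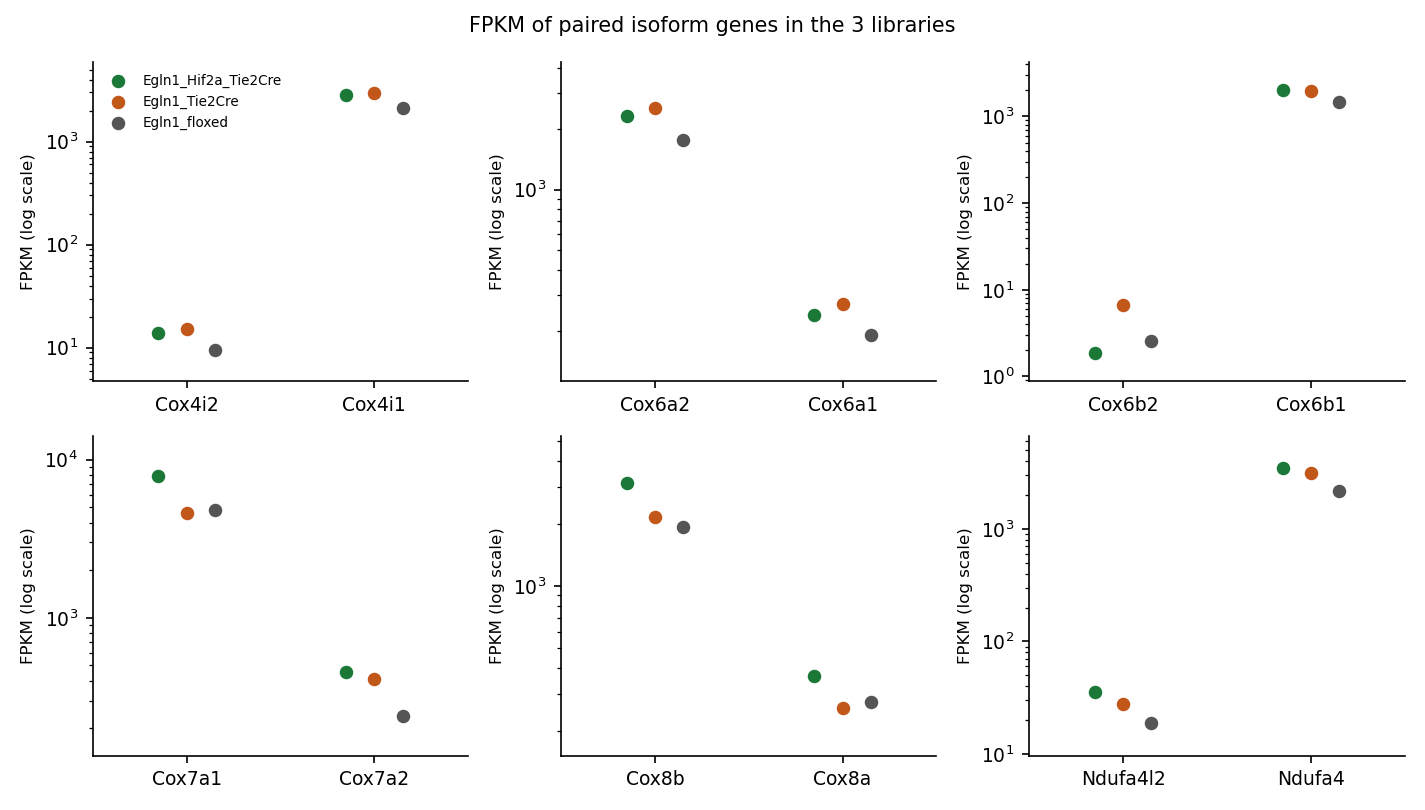
FPKM on a log axis of 6 pairs of genes that encode alternative forms of a subunit, with a point per library in the order Egln1_Hif2a_Tie2Cre, Egln1_Tie2Cre and Egln1_floxed. The muscle forms Cox6a2, Cox7a1 and Cox8b lie above their partners in every library, and Cox4i2, Cox6b2 and Ndufa4l2 lie far below theirs.

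Other genes of the pathway were read by list. Of the 13 mitochondrially encoded subunits, 9 were listed for Egln1_Tie2Cre against floxed and 9 were below 0, with a median of -0.65. The most extreme were mt-Nd3, a complex I subunit with 9.70 FPKM in the Egln1_Tie2Cre library and 21464 FPKM in the floxed library, and mt-Co2, a complex IV subunit with 29.96 and 51974 FPKM. Both have a copy of at least 98% identity in another annotated gene. The 6 listed subunits without such a copy had a median of -0.63 (range -1.53 to -0.06), with 1 of 6 that was 2-fold lower. So the mitochondrially encoded subunits were lower and most nuclear-encoded subunits without a close copy higher in the same pair of libraries. Between the Egln1_Hif2a_Tie2Cre and floxed libraries, 6 of the 8 listed were above 0, with a median of 0.34. The 14 citrate cycle genes had medians of 0.11 for Egln1_Tie2Cre over floxed and -0.12 for Egln1_Hif2a_Tie2Cre over floxed. Suclg2, a subunit of succinyl-CoA ligase with a copy of 98.925% identity, was the only citrate cycle gene 2-fold apart from floxed, at 26.5 FPKM in the Egln1_Tie2Cre library and 68.5 FPKM in the floxed library. Of 29 listed assembly factors outside the symbol rule, Higd1a and Atpaf1, which have copies of 99.306% and 100% identity, were 2-fold lower in Egln1_Tie2Cre over floxed, and the median was 0.01. The 7 regulators of mitochondrial gene expression had medians of 0.07 for Egln1_Tie2Cre over floxed and -0.11 for Egln1_Hif2a_Tie2Cre over floxed. Only Tfb2m, with a copy of 99.326% identity, was 2-fold lower (8.84 FPKM in the Egln1_Tie2Cre library and 22.9 FPKM in the floxed library). Ppargc1a, a coactivator that drives mitochondrial genes, had 19.5, 28.5 and 22.7 FPKM in the libraries labelled Egln1_Hif2a_Tie2Cre, Egln1_Tie2Cre and floxed. The related Ppargc1b went the other way in the Egln1_Tie2Cre library, with 6.47, 6.29 and 8.52 FPKM.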

How the data were processed

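Left ventricular RNA of 3 pooled libraries was compared, 1 per genotype. The submitters' processing notes name TopHat2, a tool for aligning spliced reads, and Cuffdiff, a tool for estimating and comparing abundance; no version, genome build or annotation is given in the sources used here. The authors deposited FPKM per gene in 3 tables of library pairs, with a q-value and a fold change for each gene, of which the deposited fold changes were not used. Log2 ratios of FPKM + 1 were computed for genes whose mean over a pair reached 1 FPKM, and folds of at least 2 were counted. No p-value was computed, and depth is unknown. Copies were found with BLAST 2.17.0 (megablast, word size 20) against GENCODE M21 transcripts; 15299 of the 15503 gene IDs were found in that annotation. The search and the ratio step were tested on simulated data. Alternatives were a pseudocount of 0.1, no filter or a mean FPKM of at least 5, centring, a 1.5-fold threshold and other definitions of a copy and of a complex. Values were given for the highest and lowest gene of each complex, the most abundant genes, isoform pairs, complex II, Cyc1, Cycs and genes with listed pseudogenes; some further genes were named after their values were seen. The genes and lists were chosen with earlier results of these data known.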

Additional observations from a re-analysis of the deposited data

How the results depend on the processing

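With a pseudocount of 0.1 or without the filter, all medians and counts of the set, its complexes and its copy classes kept their direction and stayed within 1.5 times. A mean FPKM of at least 5 left 1 gene instead of 2 at least 2-fold higher in Egln1_Tie2Cre over floxed (1 also among genes without a copy), and 0 instead of 1 lower in Egln1_Hif2a_Tie2Cre over Egln1_Tie2Cre (0 also among genes without a copy). Centring on all genes kept likewise left 1 higher in Egln1_Tie2Cre over floxed, in all and in those without a copy. At 1.5-fold, 9 genes were higher in Egln1_Tie2Cre over floxed (1 with and 8 without a copy), 2 were lower in Egln1_Hif2a_Tie2Cre over Egln1_Tie2Cre (2 without a copy, with 3 higher), and 26 were higher in Egln1_Hif2a_Tie2Cre over floxed (13 with and 13 without a copy). With copies defined by symbol, 4 genes with and 9 without a copy were 2-fold lower in Egln1_Tie2Cre over floxed, and 4 and 12 were higher in Egln1_Hif2a_Tie2Cre over Egln1_Tie2Cre. The following were added after seeing the data. The median of genes with a copy, 0.22 in Egln1_Tie2Cre over floxed and 0.38 in Egln1_Hif2a_Tie2Cre over Egln1_Tie2Cre, became -1.47 and 1.93 at 95% identity and -2.63 and 3.11 at 98%, where 2 genes without such a copy were 2-fold higher in Egln1_Hif2a_Tie2Cre over Egln1_Tie2Cre. Without the genes that have a copy of at least 98% identity, 0 genes were lower in Egln1_Tie2Cre over floxed (0 with a more diverged copy), and 2 were higher in Egln1_Hif2a_Tie2Cre over Egln1_Tie2Cre (1 with a more diverged copy). Centring by transcript length left 0 genes higher in Egln1_Tie2Cre over floxed and in Egln1_Hif2a_Tie2Cre over floxed, in all and without a copy, and 15 instead of 16 higher in Egln1_Hif2a_Tie2Cre over Egln1_Tie2Cre. It moved the median of genes with a copy to -0.011, of complex III to -0.0011 and of assembly factors to -0.041 in Egln1_Tie2Cre over floxed, and of assembly factors to -0.022 in Egln1_Hif2a_Tie2Cre over floxed. Adding listed copies turned Cox7c to 0.44 in Egln1_Tie2Cre over floxed and Atp5g1 to -0.14 in Egln1_Hif2a_Tie2Cre over Egln1_Tie2Cre. The cause was not tested, beyond what each choice adds or removes. No paired analysis was possible because each genotype has 1 library. Depth is unknown, and no difference between these libraries can be separated from variation among pools.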
